A study of Mus musculus with 8 samples.

Results

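The extracellular matrix of white adipose tissue (WAT) was followed through a list of 40 genes, given by name. They fall into 7 groups, namely fibrillar collagens, collagen VI, basement membrane, cross-linkers with a collagen chaperone, glycoproteins with elastic fibres, proteoglycans, and proteases with their inhibitors. Of the 40 genes, 33 were measured, 4 (Col5a2, Postn, Lama4 and Lamb1) were below background, and 3 (Col6a3, Fn1 and Fbn1) were not analysed here, in a series in which 8285 of 16593 genes with a named probe were measured. The samples were epididymal WAT from male mice of the C57BL6/J strain at 4 months of age, fed a low fat diet in both groups. By the labels, 4 samples came from transgenic mice that overexpress angiotensinogen (Agt), the precursor of the angiotensin peptides, in WAT (Agt Tg), and 4 came from wild type mice (Wt). The study drove the transgene with the aP2 promoter of adipocytes, which it names as active in macrophages too. The sources used here do not give the number of transgenic lines behind the group. The question asked here was how the matrix genes differed between the groups and how they varied from array to array.

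Adipocytes sit in a mesh of collagen fibres and are each wrapped in a basement membrane. Fibrillar collagens I, III and V give the tissue its tensile strength, collagen IV with laminins and nidogen forms the sheet of the basement membrane, and collagen VI makes beaded filaments close to the cell surface. Collagen chains are folded with the help of a chaperone in the endoplasmic reticulum and are cross-linked outside the cell by lysyl oxidases. Matrix metalloproteinases cut the finished matrix and the tissue inhibitors of metalloproteinases hold them back. Fibroblasts and adipocyte progenitors make much of this matrix, while adipocytes, endothelial cells and macrophages contribute to it, and the matrix expands as fat depots grow in obesity.

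Each sample was read on an Illumina mouse BeadChip, and levels are given as normalized log2 intensity, on which a difference of 1 is a 2-fold difference. The number of probes detected per array ran from 11253 to 12284, and within a group the correlation between any 2 arrays was 0.956 to 0.986. Agt, the gene of the transgene, was not higher on the arrays labelled Agt Tg. Its level was 6.74, 8.80, 6.39 and 8.39 on Agt Tg replicates 1 to 4, against 7.50, 8.87, 8.11 and 8.09 on Wt replicates 1 to 4, a difference of -0.56 ± 0.48 (SE, exact two-sided permutation p = 0.4). The sources used here do not say whether this probe reads the transgene, so every direction below compares the arrays labelled Agt Tg with those labelled Wt, on the labels alone. Adipocyte markers were present in both groups, with 12 of 14 measured and a summed intensity of 102000 to 116900 in Agt Tg and 99520 to 114300 in Wt. The labels do not state that every sample is a mouse of its own, so the p-values reflect the spread among these 8 samples, which may be technical.

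Most matrix genes lay at like levels on both sets of arrays. At unadjusted limma p under 0.05, 5 were higher and 1 was lower in Agt Tg, a balance that changed under median scaling, as given below. Collagen VI chain Col6a2 and the basement membrane collagen Col15a1 were higher on every array labelled Agt Tg than on any Wt array, by 1.51-fold and 1.40-fold. Genes without overlap made up 6.06% of the 33, near the 6.36% of all genes. Thrombospondins Thbs1 (2.30-fold) and Thbs2 (1.33-fold) and the cross-linker Lox (1.38-fold) were higher with overlapping groups, and Tgfbi, an adhesion protein, was 1.40-fold lower. None of these passed at adjusted p under 0.05, where the lowest adjusted p among the matrix genes was 0.348 in limma. Fitted differences (Agt Tg minus Wt) ran from -0.49 to 1.20 and had a median of 0.026 over the 33 genes, beside 0.014 over all 8285 genes.

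At unadjusted p under 0.05, 6 of the 33 matrix genes (18.2%) differed, beside 9.28% of all genes and 9.85% of all probes. The matrix genes were brighter, with a median level of 10.88 beside 7.647 for all genes, and the shares were not matched for level. Of the 33, 5 (15.2%) were higher in Agt Tg at this threshold, where 3.93% of all genes were, and 1 (3.03%) was lower, where 5.35% of all genes were. At adjusted p under 0.05 there were 0 of 33, as in 0.0% of all genes. The groups did not overlap for 2 of 33 genes (6.06%), both higher in Agt Tg, beside 6.36% of all genes (3.05% higher and 3.31% lower). Fitted differences were above 0 for 19 matrix genes and below 0 for 14, and 52.0% of all genes were above 0. The count of 6 was 3 without Wt replicate 2, which left Col6a2, Col15a1 and Thbs1. Median scaling of the arrays in place of quantile normalization moved the median of all genes to -0.122, with 0.604% of all genes higher among the 10.4% at unadjusted p under 0.05, and left 2 matrix genes higher (Col6a2 and Thbs1) and 3 lower (Col18a1, Serpinh1 and Tgfbi).

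**Figure D1:**
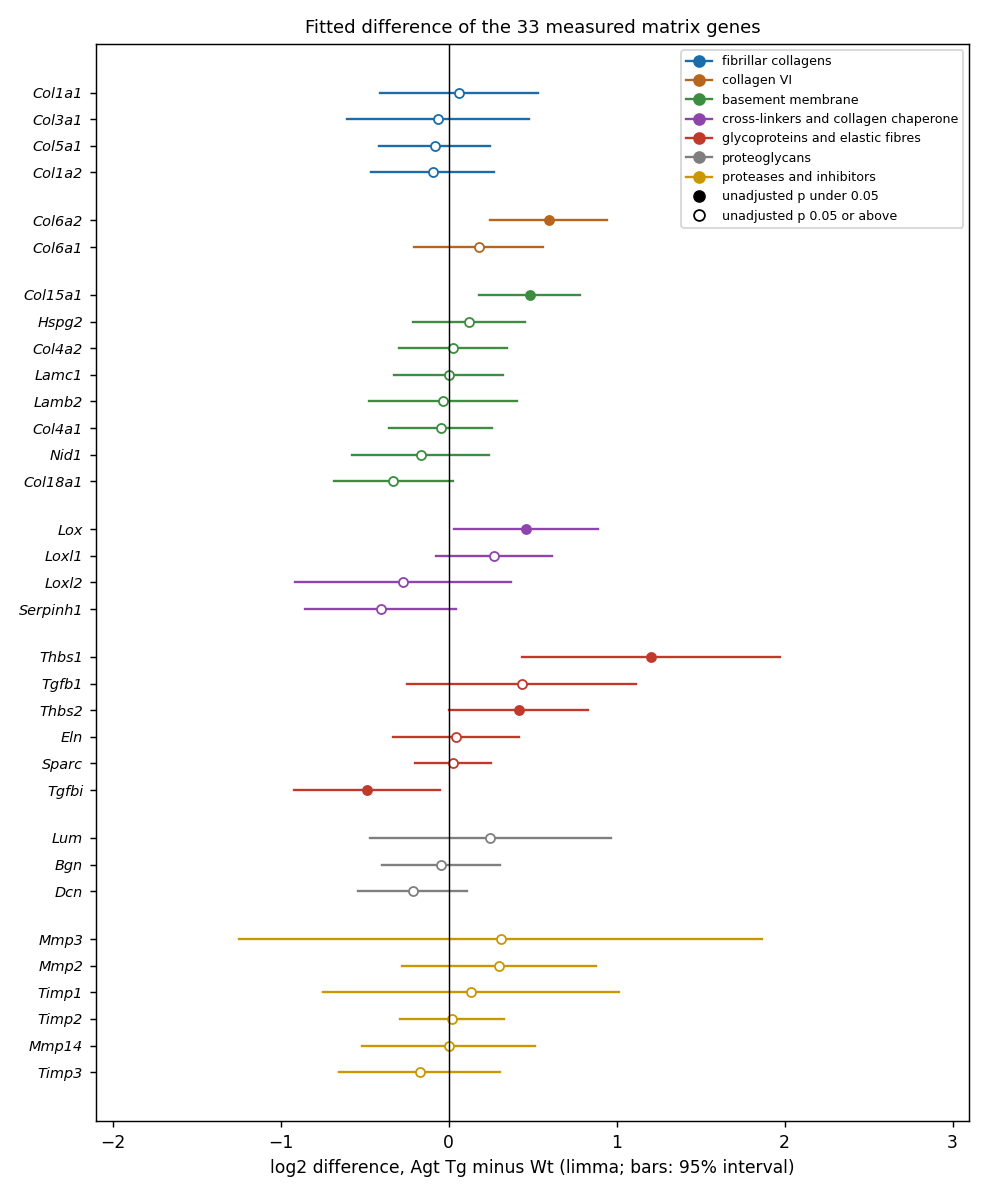
Fitted log2 difference (Agt Tg minus Wt, horizontal axis) of the 33 measured matrix genes, by group and colour, with bars for the 95% interval. Filled points are the 6 genes at unadjusted limma p under 0.05, and the widest bar is that of Mmp3, from -1.25 to 1.87.

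Among the fibrillar collagens, which build the load-bearing fibres, 4 of 5 were measured and none was at unadjusted p under 0.05, with a median difference of -0.072. Col1a1, the alpha 1 chain of collagen I, read 10.17, 9.29, 9.77 and 9.56 on Agt Tg replicates 1 to 4, against 9.85, 9.35, 9.34 and 10.01 on Wt replicates 1 to 4. Its groups overlapped throughout, and the difference of 0.059 ± 0.22 (SE) had a 95% interval from -0.41 to 0.53, with a sign that turned to -0.065 under median scaling. Col1a2, the other chain of collagen I, read 7.16, 7.13, 7.25 and 6.95 in Agt Tg, against 7.28, 7.22, 7.18 and 7.18 in Wt. It was one of the steadiest matrix genes, its arrays differing by at most 0.33, and its difference was -0.094 ± 0.17 (SE).

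Collagen III, the partner of collagen I in soft tissues, is a homotrimer of Col3a1 chains. Of its 2 probes, the dimmer was above background on 3 of 8 arrays and was not compared. The brighter gave 7.02, 6.85, 6.69 and 7.04 on the arrays labelled Agt Tg and 7.31, 7.00, 6.22 and 7.31 on those labelled Wt. The lowest and the highest of these 8 values were both in Wt, and the difference was -0.062 ± 0.25 (SE), or -0.31 without Wt replicate 3 and 0.055 without Wt replicate 4. Col5a1, a collagen V chain that sets the width of collagen I fibres, lay at 11.62, 11.64, 11.77 and 11.24 in Agt Tg, against 11.90, 11.46, 11.55 and 11.67 in Wt. These groups overlapped too, and the difference was -0.082 ± 0.15 (SE). The probe of Col5a2, the other collagen V chain, was above background on 1 of 8 arrays, an Agt Tg array, so it was not compared.

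Collagen VI held the matrix gene of smallest p, Col6a2, with 2 of 3 chains measured and both differences above 0. It is assembled from an alpha 1, an alpha 2 and an alpha 3 chain, and is abundant around adipocytes. A promoter of Col6a2 is shown because that gene separated the groups. RefSeq on GRCm38.p6 holds 2 promoter windows for this gene, and the one at the lower coordinate was taken. Given are the 250 bases before its start site, at chr10:76623405-76623654, minus strand, with the letters of the GC box (GGGCGG, read on both strands) in capitals.
Col6a2: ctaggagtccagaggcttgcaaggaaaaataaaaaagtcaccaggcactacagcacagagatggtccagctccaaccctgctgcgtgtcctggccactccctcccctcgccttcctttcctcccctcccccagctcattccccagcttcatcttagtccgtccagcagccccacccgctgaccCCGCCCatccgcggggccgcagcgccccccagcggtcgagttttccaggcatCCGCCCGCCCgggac

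The 3 matches, the last a pair that overlaps, begin 67, 15 and 11 bases before the start. Of the 40 matrix genes 27 were matched in this RefSeq table, and 18 of them had a GC box in the 300 bases from 250 before to 50 after a start, where 35.7% of all 32851 windows did. A match is only a run of letters, and no binding was measured.

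Col6a2 read 12.46, 12.36, 12.29 and 12.18 on Agt Tg replicates 1 to 4, against 12.05, 11.49, 11.42 and 11.95 on Wt replicates 1 to 4. All of the Agt Tg arrays lay above all of the Wt arrays, of which replicates 2 and 3 were the lowest. The means were 12.32 ± 0.12 in Agt Tg and 11.73 ± 0.32 in Wt (SD, n = 4 each), and the difference was 0.60 ± 0.16 (SE) with a 95% interval from 0.25 to 0.94. Its unadjusted limma p was 0.00278, its adjusted p was 0.348, and exact permutation of the arrays gave a two-sided p of 0.0286, which is as low as 4 arrays against 4 can go. Leaving out single arrays moved the difference between 0.49 and 0.70, and median scaling gave 0.50.

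Col6a1, the alpha 1 chain, had 3 probes. On the brightest the arrays read 13.63, 13.39, 13.44 and 13.34 in Agt Tg, against 13.69, 13.36, 12.72 and 13.32 in Wt. Wt replicate 3 was far below the rest, and the difference of 0.18 ± 0.18 (SE) was -0.0056 without that array. The next probe differed by 0.17 ± 0.17 (SE). On the dimmest one the groups did not overlap, at 6.17, 5.81, 6.19 and 5.78 in Agt Tg and 5.46, 5.70, 4.93 and 5.13 in Wt, a difference of 0.68 ± 0.23 (SE, adjusted p = 0.384) that was 0.22 on the authors' values, which carry no background correction. The probes of Col6a1 thus differed in size of difference, and the alpha 3 chain Col6a3 was not analysed here.

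**Figure D2:**
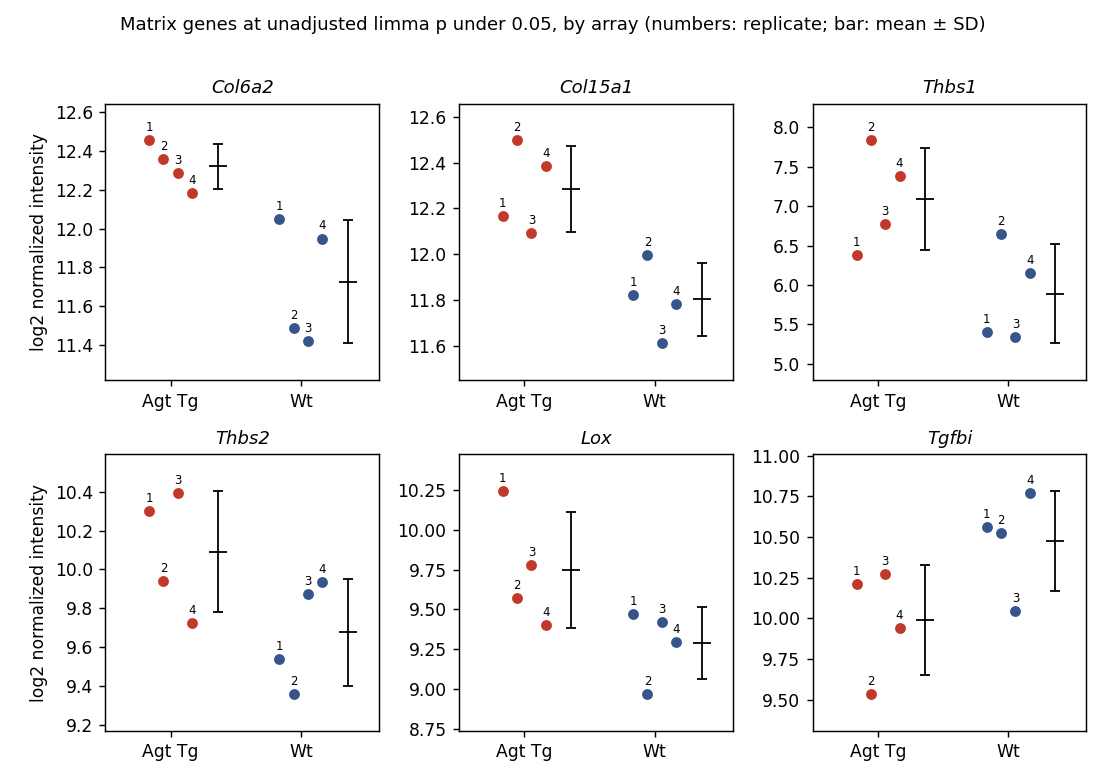
Normalized log2 intensity (vertical axis, a scale of its own in each panel) of the 6 matrix genes at unadjusted limma p under 0.05, with a point for each array, its replicate number, and the mean with its SD beside each group. Only Col6a2 and Col15a1 have no overlap between the 4 arrays labelled Agt Tg and the 4 labelled Wt.

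In the basement membrane group 8 of 10 genes were measured, 4 with a difference above 0 and 4 below, and a median of -0.015. Col15a1 alone was at unadjusted p under 0.05. It encodes the collagen XV chain, a proteoglycan that links the basement membrane to the fibres beneath it. Its promoter is shown as that of the other gene whose groups did not overlap, the 250 bases before the start at chr4:47207762-47208011, plus strand, of RefSeq on GRCm38.p6. On neither strand did these bases hold the GC box or any of the other letters searched, which were TATAAA for the TATA box, CCAAT for the box of that name, TGAGTCA for the AP-1 site and CAGAC for the SMAD element, so nothing is in capitals.
Col15a1: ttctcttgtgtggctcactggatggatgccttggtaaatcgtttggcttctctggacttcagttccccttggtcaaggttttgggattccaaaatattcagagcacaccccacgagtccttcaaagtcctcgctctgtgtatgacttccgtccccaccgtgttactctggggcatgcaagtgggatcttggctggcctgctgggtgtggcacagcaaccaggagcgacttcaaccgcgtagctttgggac

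Col15a1 read 12.17, 12.50, 12.09 and 12.38 on Agt Tg replicates 1 to 4, against 11.82, 12.00, 11.61 and 11.78 on Wt replicates 1 to 4. The groups were separate by a narrow gap, between Agt Tg replicate 3 and Wt replicate 2. Means were 12.29 ± 0.19 in Agt Tg and 11.80 ± 0.16 in Wt (SD, n = 4 each), a difference of 0.48 ± 0.14 (SE) with a 95% interval from 0.18 to 0.78. The unadjusted limma p was 0.00428, the adjusted p was 0.348, and the exact two-sided permutation p was again 0.0286. The difference stayed between 0.41 and 0.55 when single arrays were left out, and was 0.40 under median scaling with an unadjusted p of 0.0666.

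Collagen IV is the network-forming collagen of the same sheet, made of Col4a1 and Col4a2 chains. On the arrays labelled Agt Tg, Col4a1 read 13.70, 13.50, 13.51 and 13.46, against 13.74, 13.71, 13.19 and 13.72 on those labelled Wt. Wt replicate 3 again lay apart and low, and the difference was -0.048 ± 0.14 (SE), or -0.18 without it. Col4a2 read 13.026, 12.610, 12.907 and 12.643 in Agt Tg, against 12.859, 12.754, 12.473 and 12.999 in Wt. Its lowest array was also Wt replicate 3, and its difference of 0.026 ± 0.15 (SE) changed sign under median scaling (-0.056). In RefSeq on GRCm38.p6 these 2 genes lie on opposite strands of chromosome 8, with start sites 21 bases apart. Each is read through the start of the other, so their first 22 bases overlap. Across the 8 arrays their levels had Pearson r = 0.804 (exact permutation p = 0.0141, adjusted p = 0.0564 over the 4 pairs tested) and Spearman rho = 0.667 (exact permutation p = 0.0831, adjusted p = 0.128). Without the 2 arrays farthest from the median of Col4a1, Agt Tg replicate 4 and Wt replicate 3, r was 0.495, so the relation rested in part on them. After each group's mean was taken off r was 0.823.

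Col18a1, the collagen from which the fragment endostatin is cut, had a difference of -0.33 ± 0.16 (SE, adjusted p = 0.525), but -0.09 ± 0.20 (SE) on its second measured probe. Lamb2, a laminin beta chain and the dimmest measured gene of this group, read 9.31, 10.01, 9.27 and 9.39 in Agt Tg and 9.34, 9.51, 9.94 and 9.32 in Wt. A single array was high in each group, Agt Tg replicate 2 and Wt replicate 3, and the difference was -0.032 ± 0.20 (SE). The laminin gamma chain Lamc1 differed by 0.00082 ± 0.15 (SE), perlecan (Hspg2), a heparan sulphate proteoglycan, by 0.12 ± 0.15 (SE), and nidogen 1 (Nid1), which joins laminin to collagen IV, by -0.17 ± 0.19 (SE), or 0.032 without Wt replicate 3, where it was highest. All 3 overlapped between groups. Laminin chains Lama4 and Lamb1 were above background on 1 and 0 of 8 arrays.

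All 4 genes that process collagen were measured, with 2 differences above 0 and 2 below. Lysyl oxidase (Lox), which oxidises lysines so that collagen and elastin chains can cross-link, read 10.24, 9.57, 9.78 and 9.40 on Agt Tg replicates 1 to 4, against 9.47, 8.97, 9.42 and 9.30 on Wt replicates 1 to 4. Agt Tg replicate 1 was the highest and Wt replicate 2 the lowest, and the groups overlapped at Agt Tg replicate 4. Its difference was 0.46 ± 0.20 (SE), 1.38-fold, with a 95% interval from 0.034 to 0.89, an unadjusted limma p of 0.0364 and an adjusted p of 0.486. The exact two-sided permutation p was 0.0857. Lox missed the unadjusted threshold without Agt Tg replicate 1 (a difference of 0.30) or 3 (0.45) and without Wt replicate 2 (0.36) or 4 (0.47). It also missed it under 2 of the 11 other processing settings, median scaling among them.

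Loxl1, the family member tied to elastic fibres, was nearly constant in Agt Tg, at 12.34, 12.28, 12.32 and 12.29, and more spread in Wt, at 12.05, 12.02, 11.63 and 12.45. Only Wt replicate 4 lay above the Agt Tg arrays, and the difference was 0.27 ± 0.16 (SE, adjusted p = 0.589). The SD was 0.030 in Agt Tg and 0.34 in Wt. Loxl2, which acts on collagen IV, was dim and above background on 6 of 8 arrays, at 4.98, 5.15, 5.18 and 5.84 in Agt Tg, against 5.98, 4.83, 6.05 and 5.38 in Wt. Its groups overlapped widely, with a difference of -0.27 ± 0.30 (SE). Serpinh1, the collagen chaperone HSP47, had 7.57, 6.97, 7.32 and 7.58 in Agt Tg, against 8.04, 7.61, 7.47 and 7.92 in Wt. Wt replicates 1, 2 and 4 were above every Agt Tg array. The difference was -0.40 ± 0.21 (SE). Its unadjusted limma p was 0.0746, and it was 0.0491 under median scaling, with a difference of -0.59.

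The glycoproteins, which tie cells and growth factors to the fibres, held the largest difference of the 33 genes, with 6 of 9 measured and a median of 0.23. Thbs1 encodes thrombospondin 1, a matrix glycoprotein that binds CD36 and CD47 and can activate latent TGF-beta. It read 6.38, 7.83, 6.77 and 7.38 on Agt Tg replicates 1 to 4, against 5.41, 6.65, 5.34 and 6.15 on Wt replicates 1 to 4. Replicates 2 and 4 were the high ones in both groups, and the only overlap was Wt replicate 2, which lay above Agt Tg replicate 1. Means were 7.09 ± 0.64 in Agt Tg and 5.89 ± 0.63 in Wt (SD, n = 4 each). The difference was 1.20 ± 0.35 (SE), 2.30-fold, with a 95% interval from 0.44 to 1.97, an unadjusted limma p of 0.00499, an adjusted p of 0.348 and an exact two-sided permutation p of 0.0571. It was 0.55 on the authors' values and 0.96 to 1.46 when single arrays were left out.

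Thbs2, the second thrombospondin, is needed for normal fibre assembly in mouse connective tissue. It read 10.30, 9.94, 10.40 and 9.72 in Agt Tg, against 9.54, 9.36, 9.87 and 9.93 in Wt. Wt replicate 3 lay above Agt Tg replicate 4, as did Wt replicate 4, and the difference was 0.42 ± 0.19 (SE), 1.33-fold (unadjusted limma p = 0.0498, adjusted p = 0.505, exact two-sided permutation p = 0.114). The unadjusted threshold was missed without Agt Tg replicate 1 (0.35) or 3 (0.31) and without Wt replicate 1 (0.37) or 2 (0.31). It was also missed under 5 of the 11 other processing settings, the authors' values (0.37) and median scaling among them. Within Agt Tg, high arrays were not shared by the thrombospondins, since replicates 1 and 3 were high for Thbs2 and replicates 2 and 4 for Thbs1. In Wt, replicate 4 was high for both.

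Tgfbi, a TGF-beta induced protein that bridges integrins and collagen, was the only gene lower at the unadjusted threshold. It read 10.21, 9.53, 10.27 and 9.94 in Agt Tg, against 10.56, 10.53, 10.05 and 10.77 in Wt. Wt replicate 3 lay among the Agt Tg arrays and the other Wt arrays lay above all of them. The difference was -0.49 ± 0.20 (SE), 1.40-fold lower, with an unadjusted limma p of 0.0307, an adjusted p of 0.478 and an exact two-sided permutation p of 0.0857. A second probe differed by only -0.11 ± 0.22 (SE). The unadjusted threshold was missed without Agt Tg replicate 2 (-0.33) or 4 (-0.47) and without Wt replicate 1 (-0.46), 2 (-0.47) or 4 (-0.39). It was also missed under 1 of the 11 other processing settings.

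Tgfb1, the ligand TGF-beta 1 that drives matrix synthesis in fibroblasts, read 9.524, 8.763, 9.690 and 9.051 in Agt Tg, against 8.863, 8.998, 7.869 and 9.557 in Wt. Its lowest value by far was on Wt replicate 3, and the difference of 0.44 ± 0.31 (SE, adjusted p = 0.66) was 0.12 without that array and 0.68 without Wt replicate 4. Sparc, a collagen-binding glycoprotein, was the steadiest matrix gene, at 14.40, 14.28, 14.31 and 14.29 in Agt Tg and 14.37, 14.24, 14.19 and 14.37 in Wt. Its difference was 0.026 ± 0.10 (SE), with a sign that turned under median scaling (-0.011), and its second probe gave -0.019 ± 0.10 (SE). Elastin (Eln), the core of elastic fibres, differed by 0.044 ± 0.17 (SE). Periostin (Postn), a protein of fibrotic tissue, was above background on 0 of 8 arrays.

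All 3 small leucine-rich proteoglycans, which coat collagen fibres and space them, were measured. Decorin (Dcn) read 13.02, 12.57, 13.07 and 12.97 in Agt Tg, against 13.13, 13.31, 12.82 and 13.22 in Wt. The groups overlapped, with a difference of -0.21 ± 0.15 (SE) and -0.19 ± 0.18 (SE) on a second probe. Lumican (Lum) read 12.27, 10.48, 11.87 and 10.75 on Agt Tg replicates 1 to 4, against 11.35, 10.79, 11.23 and 11.01 on Wt replicates 1 to 4. Agt Tg replicates 1 and 3 lay above every Wt array and Agt Tg replicates 2 and 4 below every one. Its SD was 0.86 in Agt Tg and 0.25 in Wt, and its difference of 0.25 ± 0.33 (SE) became -0.061 without Agt Tg replicate 1. Biglycan (Bgn) differed by -0.047 ± 0.16 (SE).

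None of the 6 proteases and inhibitors was at unadjusted p under 0.05, and their median difference was 0.076. Mmp3 and Timp1 had the widest spread within groups (pooled SD) among the 33 genes, while Timp2 was steadier than most genes. Mmp3 (stromelysin 1, which cuts proteoglycans and activates other proteases) and Timp1 (which inhibits it) were low on the same arrays, and their promoters are shown for that reason. These are the 250 bases before the start in RefSeq on GRCm38.p6, at chr9:7445572-7445821, plus strand, for Mmp3 and at chrX:20869916-20870165, plus strand, for Timp1. Capitals mark the AP-1 letters (TGAGTCA) and TATA box letters (TATAAA) in Mmp3, and the CCAAT box (CCAAT, read here as ATTGG) and GC box letters in Timp1, searched on both strands.
Mmp3: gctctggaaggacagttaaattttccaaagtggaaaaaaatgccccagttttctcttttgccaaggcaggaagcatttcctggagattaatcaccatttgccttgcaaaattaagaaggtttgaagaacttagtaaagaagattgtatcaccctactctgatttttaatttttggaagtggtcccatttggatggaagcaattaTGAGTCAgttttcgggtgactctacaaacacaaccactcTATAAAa
Timp1: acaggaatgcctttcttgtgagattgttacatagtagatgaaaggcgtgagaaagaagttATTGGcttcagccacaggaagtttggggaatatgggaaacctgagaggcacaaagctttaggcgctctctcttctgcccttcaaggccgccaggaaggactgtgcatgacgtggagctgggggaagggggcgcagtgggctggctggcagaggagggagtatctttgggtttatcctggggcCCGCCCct

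In Mmp3 the AP-1 letters begin 46 and the TATA letters 7 bases before the start, and in Timp1 the CCAAT letters begin 190 and the GC box 8 bases before it, so that the 2 windows held no motif in common among these. Of the 27 matched matrix genes, 2 (Col6a1 and Mmp3) held AP-1 letters in the 300-base window, where 5.2% of all windows did, and 4 held TATA letters, where 13.6% did. CCAAT letters were found in 11 of the 27, where 37.4% of all windows held them, and SMAD element letters in 15 of the 27, where 49.6% did.

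Mmp3 read 8.23, 6.30, 8.60 and 7.28 on Agt Tg replicates 1 to 4, against 8.40, 4.76, 7.52 and 8.49 on Wt replicates 1 to 4, with Wt replicate 2 not above background. Replicate 2 was the lowest array of either group. The difference of 0.31 ± 0.72 (SE) had a 95% interval from -1.25 to 1.87 and was -0.53 without Wt replicate 2 and 0.74 without Agt Tg replicate 2. The other 2 probes of Mmp3 differed by 0.29 ± 0.52 (SE) and 0.12 ± 0.44 (SE). Timp1 read 9.61, 7.97, 9.51 and 8.57 in Agt Tg, against 9.53, 7.71, 9.14 and 8.75 in Wt. Its groups covered nearly the same range, with a difference of 0.13 ± 0.41 (SE), and its second probe gave 0.036 ± 0.44 (SE).

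Across the 8 arrays the levels of Mmp3 and Timp1 had Pearson r = 0.886 and Spearman rho = 0.714, given as a description with no test, since this pair was chosen after the values had been seen. Without Agt Tg replicate 2 and Wt replicate 2, the arrays farthest from the median of Mmp3, r was 0.563, so the relation rested in part on them, and Mmp3 was not above background on the second. With each group's mean taken off r was 0.884. The pooled SD within groups was 1.43 for Mmp3, wider than in 99.8% of all genes, and 0.784 for Timp1, at the 98.1 percentile. Next came Thbs1 (0.636, percentile 95.9), Lum (0.634, percentile 95.8) and Tgfb1 (0.581, percentile 93.8), whereas Mmp2 was at percentile 87.9, Mmp14 at 78.0, Timp3 at 72.3 and Timp2 at 20.5, while the median matrix gene, at 0.295, was as spread as the median of all genes, at 0.293.

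Gelatinase A (Mmp2), which cuts denatured collagen and collagen IV, read 11.49, 10.65, 11.59 and 10.40 in Agt Tg, against 10.97, 10.39, 10.48 and 11.08 in Wt. Agt Tg replicates 1 and 3 were the highest, and the difference was 0.30 ± 0.27 (SE). Mmp14, the membrane protease that activates Mmp2, had the same high arrays, at 10.36, 9.56, 10.73 and 9.75 in Agt Tg, against 9.77, 10.22, 10.17 and 10.24 in Wt. Its difference was -0.00020 ± 0.24 (SE). The correlation of Mmp2 with Mmp14 over 8 arrays was r = 0.628 (exact permutation p = 0.0954, adjusted p = 0.127) and rho = 0.643 (exact permutation p = 0.0962, adjusted p = 0.128), and r was 0.021 without Agt Tg replicates 1 and 3, on which it rested. Timp2, the inhibitor that also helps to activate Mmp2, read 12.89, 12.50, 12.98 and 13.01 in Agt Tg, against 12.62, 12.87, 12.81 and 12.99 in Wt, a difference of 0.019 ± 0.14 (SE). Timp3, the inhibitor bound to the matrix, differed by -0.17 ± 0.22 (SE).

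The same was computed for the other partner chains, and no pair passed at adjusted p under 0.05. Col6a1 and Col6a2 had r = 0.685 (exact permutation p = 0.0489, adjusted p = 0.0978) and rho = 0.643 (exact permutation p = 0.0962, adjusted p = 0.128) over 8 arrays, and r = 0.579 without Wt replicates 1 and 3. Col1a1 and Col1a2 had r = 0.183 (exact permutation p = 0.713, adjusted p = 0.713) and rho = 0.167 (exact permutation p = 0.703, adjusted p = 0.703), with r = 0.222 without Agt Tg replicates 1 and 2. After the group means were taken off, r was 0.772 for the collagen VI pair and 0.267 for the collagen I pair. Each of these correlations is over the same 8 arrays, and the depth and cell makeup of an array are shared by all its genes.

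Single arrays stood out across many matrix genes. Wt replicate 3, the array with the fewest detected probes, was the lowest for 12 of the 33 genes (36.4%) and for 20.2% of all genes. Agt Tg replicate 2 was lowest for 9 (27.3%, beside 16.6% of all genes) and Wt replicate 2 for 6 (18.2%, beside 10.2%). Agt Tg replicate 1 and Wt replicate 4 were lowest for 0, beside 9.5% and 8.71% of all genes. Agt Tg replicate 1 was the highest array for 7 genes (beside 8.23% of all genes) and Wt replicate 1 for 6 (beside 11.2%). Wt replicate 3 and Agt Tg replicate 2 were each the highest for 3 matrix genes. Over all genes they were highest for 20.1% and 17.8%, so there they were extreme in both directions. The median deviation of the 33 genes from their own means was 0.12, -0.078, 0.10 and -0.050 on Agt Tg replicates 1 to 4, against 0.092, -0.030, -0.15 and 0.14 on Wt replicates 1 to 4. On Wt replicate 3, Col6a1, Col4a1, Loxl1, Tgfb1 and Thbs1 were at their lowest, but 3 genes, Nid1 among them, were at their highest, and the median deviation there was -0.0057 for the proteoglycans and 0.023 for the proteases and inhibitors, against -0.31 for the basement membrane group.

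**Figure D3:**
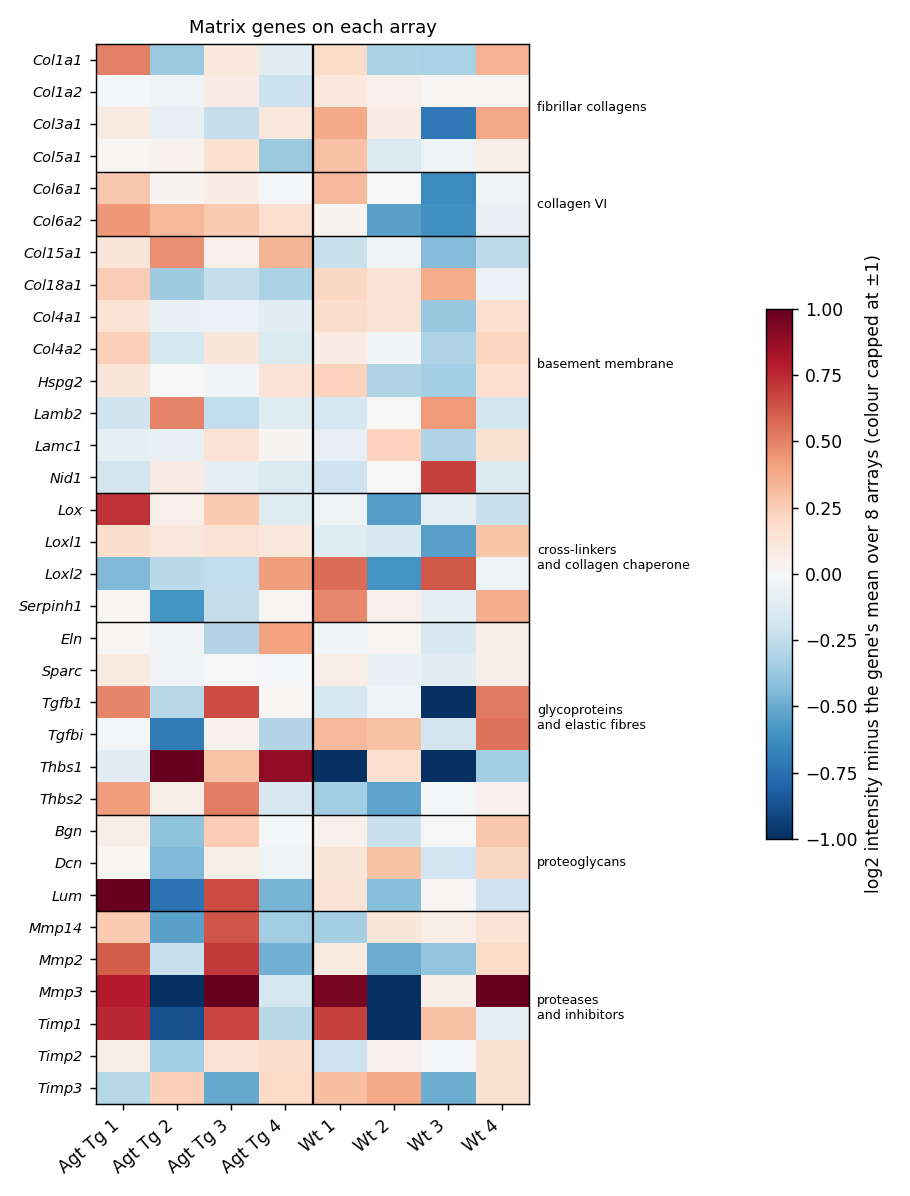
Log2 intensity of each of the 33 measured matrix genes (rows, by group) on each array (columns) minus the gene's own mean over 8 arrays, in colour capped at 1 in either direction. Wt replicate 3 is the lowest column for 12 genes, and Lum, Mmp2, Mmp3, Mmp14 and Timp1 are high on Agt Tg replicates 1 and 3 and low on Agt Tg replicate 2.

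Markers of the cell types that WAT can hold were set beside these values. In bulk tissue, fewer cells of a type and less RNA per cell cannot be told apart. Macrophage markers (14 of 17 measured) had a mean log2 intensity of 10.30, 9.13, 10.34 and 9.39 on Agt Tg replicates 1 to 4, against 10.11, 9.64, 9.77 and 10.06 on Wt replicates 1 to 4, and their summed intensity ran from 28390 to 70650 in Agt Tg and from 41770 to 62150 in Wt. They were high on the arrays on which Mmp3, Timp1, Mmp2 and Lum were high within Agt Tg, and adipocyte markers ran the other way, at 10.93, 11.49, 10.79 and 11.46 in Agt Tg and 11.02, 11.39, 11.01 and 11.02 in Wt. Agt and the adipocyte markers were both lowest on Agt Tg replicates 1 and 3. Within the macrophage list 1 gene (7.14%, beside 6.36% of all genes) separated the groups, Cd163, the haemoglobin scavenger receptor. Cd163 read 7.59, 7.40, 7.45 and 7.33 in Agt Tg, against 9.18, 8.34, 8.63 and 8.42 in Wt. Its difference of -1.20 ± 0.20 (SE) did not pass in limma (adjusted p = 0.224), and the median difference of the list was 0.024. The part of these markers in the spread of the matrix genes was not tested.

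Fibroblast and progenitor markers (12 of 14 measured), the cells that make most fibrillar collagen, had means of 8.28, 8.46, 8.55 and 8.73 in Agt Tg, against 8.37, 8.43, 8.47 and 8.46 in Wt. Their median difference was 0.062, and their sums ran from 7115 to 11610 in Agt Tg and from 5859 to 7960 in Wt. The brightest of them, Gsn, weighed most in those sums, with means of 12.03 in Agt Tg and 11.20 in Wt. Of these markers 1 (8.33%), Gsn, was at unadjusted p under 0.05, higher in Agt Tg, beside 9.28% of all genes. Endothelial markers (12 of 13 measured), of the cells that also lay down collagen IV and collagen XV, had a median difference of -0.11 and sums of 11600 to 17620 in Agt Tg and 12510 to 16530 in Wt. None was at unadjusted p under 0.05, and 1 (8.33%) was lower without overlap, beside 6.36% of all genes without overlap. Smooth muscle and pericyte markers (9 of 11 measured) had a median of -0.070 and sums of 12300 to 23880 in Agt Tg and 17530 to 20710 in Wt. Acta2, the brightest of them, weighed most in those sums. At unadjusted p under 0.05 were 3 of these markers (33.3%, 2 higher and 1 lower), beside 9.28% of all genes. For 1 (11.1%) Agt Tg was higher without overlap, beside 6.36% of all genes without overlap in either direction. Mesothelial markers (9 of 12 measured), of the lining of the fat pad, had a median of -0.065, with means highest on Wt replicate 3 (7.93) and Agt Tg replicate 4 (7.87) and lowest on Agt Tg replicate 1 (7.05). None was at unadjusted p under 0.05, and 1 (11.1%) was lower without overlap, beside 6.36% of all genes without overlap in either direction. B and plasma cell markers (5 of 8 measured) had fitted differences below 0, with a median of -1.19, of which 3 were at unadjusted p under 0.05, 0 passed at adjusted p and 1 did not overlap between groups, with sums of 142.6 to 662.1 in Agt Tg and 430.5 to 1893 in Wt. Markers of epididymis epithelium were near background, with 2 of 11 measured. Beside Col6a2 and Col15a1, which separated the groups, the fibroblast, adipocyte and endothelial means overlapped between groups, and their part in those 2 differences was not tested.

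**Figure D4:**
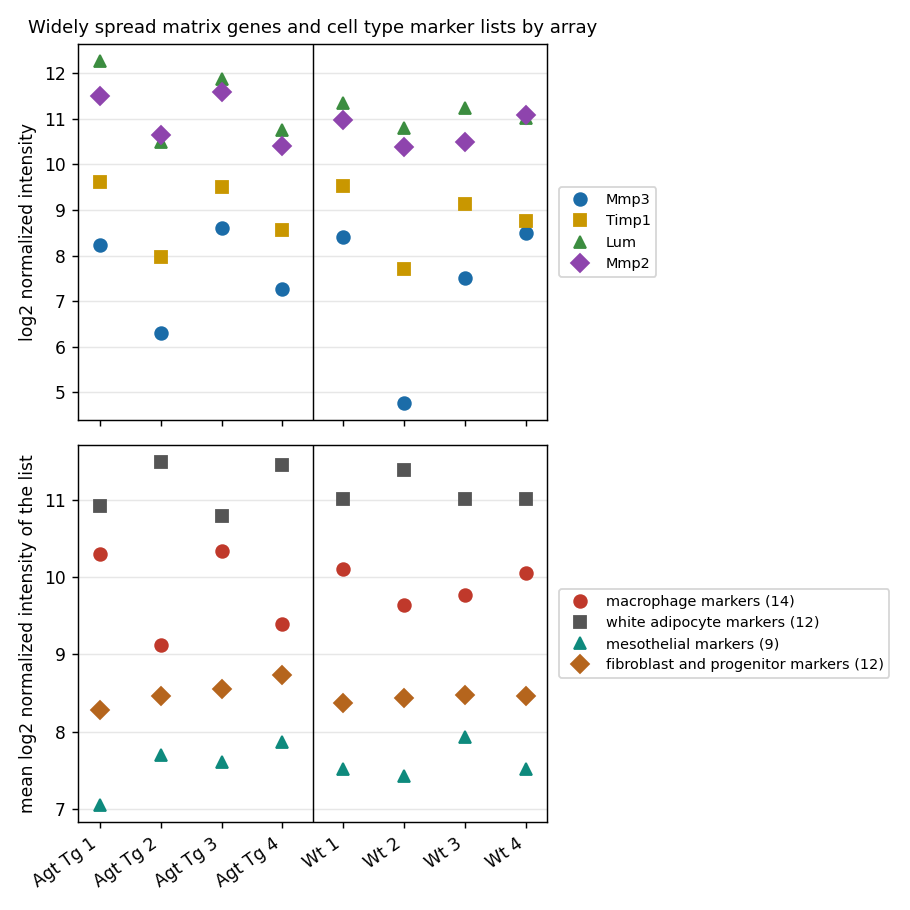
Upper panel: normalized log2 intensity of Mmp3, Timp1, Lum and Mmp2 by array. Lower panel: mean log2 intensity of 4 cell type marker lists (the number of genes in brackets) by array, with Agt Tg left of Wt. Heights are comparable between arrays within a gene or a list and not between genes, and Mmp3 and Timp1 are lowest on replicate 2 of each group.

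Other genes of the same pathways were read from 6 lists of 173 genes, of which 107 were measured, with 55 differences above 0 and 52 below and a median of 0.015. At unadjusted p under 0.05 there were 8 (7.48%), 2 higher (1.87%) and 6 lower (5.61%), beside 9.28%, 3.93% and 5.35% of all genes. None passed at adjusted p, where the lowest was 0.348. The groups did not overlap for 6 of the 107 (5.61%), 1 higher and 5 lower, near the 6.36% of all genes. Genes of collagen maturation (17 of 25 measured) gave 1 lower, P4ha1, the catalytic subunit of prolyl 4-hydroxylase and above background on 6 of 8 arrays, at 5.06 ± 0.18 in Agt Tg and 5.96 ± 0.41 in Wt (SD, n = 4 each) with no overlap. Of the other collagens (9 of 21 measured), Col16a1, a collagen that associates with fibres, was lower without overlap, at 8.94 ± 0.14 in Agt Tg and 9.66 ± 0.29 in Wt (SD, n = 4 each). Other glycoproteins and proteoglycans (33 of 50 measured) gave Mfap4, an elastic fibre protein, higher by 0.93 ± 0.29 (SE). Fbln1 and Fstl1 were lower without overlap, at -0.81 ± 0.23 (SE) and -0.69 ± 0.21 (SE), though a second Fbln1 probe gave -0.01.

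Matrix receptors (19 of 27 measured) gave 1 in each direction. Integrin chain Itga5 of the fibronectin receptor was at 0.85 ± 0.34 (SE). Itgb5, which pairs with the alpha V chain, was at -0.65 ± 0.19 (SE), without overlap. Among other proteases and inhibitors (18 of 34 measured) Mmp9, gelatinase B, differed by -0.83 ± 0.33 (SE). No gene of TGF-beta signalling (11 of 16 measured) was at unadjusted p under 0.05, and its median difference was 0.048. For 1 of its genes (9.09%) Agt Tg was higher without overlap, beside 6.36% of all genes without overlap in either direction.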

How the data were processed

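Biotin-labelled RNA of epididymal WAT from 4 Agt Tg and 4 Wt samples was read on Illumina BeadChips, per the labels. The authors deposited linear bead intensity values with a detection p-value per probe and array, and a second table of log2 values, which the submitters' processing notes tie to lumi, with no version given. Intensities were corrected and quantile normalized with limma 3.58.1 (neqc, offset 16) in R 4.3.3. Probes were kept where 4 or more of the 8 arrays had a detection p under 0.05 (11624 of 25696, 45.2%). The 2 groups were compared with lmFit and eBayes (trend), unblocked, with Benjamini-Hochberg adjustment over all kept probes. A gene was its brightest kept probe, and folds are 2 to the power of the log2 difference, uncertain for dim probes. Exact permutation of group differences used all 70 assignments of the arrays. For correlations it used every order of the 8 arrays. Arrays left out of a correlation were the 2 farthest from the median of its first-named gene. The fit was tested on simulated data. The number of arrays limits the precision.

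Values on each array are given for genes at unadjusted p under 0.05 or without overlap, for the brightest and dimmest of each group, and for a list of well-known genes, with Serpinh1, Mmp2 and Mmp14 added after their values were seen. The genes, lists and tests were chosen with earlier results of these data known. Probe names came from the platform annotation, and promoters and gene names from RefSeq (GRCm38.p6). The 4 genes below background were not tested. Other settings tried were leaving out single arrays, the replicate number as a block, array weights, robust or untrended eBayes, averaging of a gene's probes, a stricter or no detection filter, a larger offset, median scaling, uncorrected intensities, and the second table's values.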

Additional observations from a re-analysis of the deposited data

Results flagged for a closer look

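A single array lay far from the other 3 of its group in 3 of 66 groups of 4 arrays checked over the 33 matrix genes, where chance gives about 1 in 20. Lamb2, a laminin chain, was 10.01 on Agt Tg replicate 2, beside 9.27 to 9.39 on the other Agt Tg arrays. Col4a1, a collagen IV chain, was 13.19 on Wt replicate 3, beside 13.71 to 13.74 on the other Wt arrays. Mmp14, a membrane protease, was 9.77 on Wt replicate 1, beside 10.17 to 10.24 on the other Wt arrays. The causes were not tested.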

How the results depend on the processing

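Differences are Agt Tg minus Wt on the log2 scale. The count of matrix genes at adjusted p under 0.05 was 0 under all 11 other settings and without any of the 8 arrays. At unadjusted p under 0.05 it was 6, between 4 and 8 under the other settings, and between 3 (without Wt replicate 2) and 8 (without Wt replicate 3) when single arrays were left out. The median difference was 0.026, with a range from -0.051 to 0.088 over the arrays left out, and -0.078 under median scaling, where that of all genes was -0.122. Col6a2 was past the unadjusted threshold in every setting, and Col15a1 in all but median scaling.

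The replicate number as a block gave 8 matrix genes at unadjusted p under 0.05 and 0 at adjusted p, with a lowest adjusted p of 0.0907 (Thbs1). Deviations of same-numbered arrays correlated at 0.33, 0.39, -0.037 and -0.082. Arrays of different numbers were not compared in this way, so these values cannot decide whether the numbers pair the samples. The main fit was left unblocked.

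Of 624 single-gene values under another setting, 536 kept direction and side of the unadjusted threshold, 22 dropped below it, 11 passed it and 55 changed sign. Median scaling turned Col1a1 (-0.0646), Col4a2 (-0.0562), Eln (-0.119), Lamc1 (-0.0989), Sparc (-0.0108), Timp1 (-0.0267) and Timp2 (-0.0778). Array weights turned Col4a2 (-0.000347), Eln (-0.0282), Lamc1 (-0.0513) and Mmp14 (0.166). Mmp14 was also 0.00603 with no background correction, 0.00491 on the authors' values and 0.0016 with an offset of 50. Leaving out single arrays turned the sign for Bgn (-0.139 to 0.0789), Col1a1 (-0.0978 to 0.193), Col3a1 (-0.311 to 0.0552), Col4a1 (-0.183 to 0.00158), Col4a2 (-0.0739 to 0.102), Col5a1 (-0.15 to 0.0284), Col6a1 (-0.00562 to 0.316), Eln (-0.0827 to 0.149), Lamb2 (-0.203 to 0.105), Lamc1 (-0.0998 to 0.0766), Lum (-0.0615 to 0.536), Mmp14 (-0.209 to 0.179), Mmp3 (-0.534 to 0.743), Nid1 (-0.263 to 0.032), Sparc (-0.00846 to 0.0524), Timp1 (-0.225 to 0.447) and Timp2 (-0.0479 to 0.135). Apart from median scaling and the arrays left out, which change what enters the fit, the cause was not tested. Probes near background limit Loxl2, Thbs1, Mmp3 on Wt replicate 2, P4ha1 in Agt Tg and the dimmest Col6a1 probe.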
